A study of Homo sapiens with 5 samples.

Results

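The transcription factor NRF2 (gene NFE2L2), its repressor KEAP1 and the glutathione, thioredoxin, NADPH, detoxification, iron and peroxide genes grouped with them were followed through RNA-seq of TOV21G, a cell line from an ovarian clear cell carcinoma in which ARID1A is mutated. The set was chosen by gene symbol, with earlier results of these data known. It was 41 named genes, looked up by Ensembl identifier among the 30476 genes of the count table. Of these, 40 were found, and SOD2 was not analysed here. All 5 libraries came from the same line and so share its ARID1A mutation. One library came from parental cells, which had not been selected, and 4 came from EZH2 inhibitor-resistant (EIR) cells, which had been selected by stepwise exposure to 5, 10, 15 and 20 uM of the EZH2 inhibitor GSK126. The EIR libraries came from clone 3 and clone 4, each sequenced once untreated and once treated with GSK126, and the labels give no dose or duration for that last treatment. Each clone is a single line, so the 4 EIR libraries represent 2 clones and not 4 independent selections.

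NRF2 is held at a low level by KEAP1, which marks it for degradation, and it escapes when oxidants or electrophiles modify KEAP1. It then binds antioxidant response elements and switches on genes that take up cystine, make glutathione, reduce thioredoxin, supply NADPH, detoxify quinones and carbonyls, and store iron. Its activity is set mainly at the protein level.

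Library totals ran from 25479238 to 30764963 counts, and levels are given as normalized counts, the deposited counts divided by a size factor per library. The epithelial markers KRT8, KRT18 and PAX8 ran from 3083 to 18326 normalized counts over the libraries. EPCAM stood at 401 in parental cells and at 394 and 492 in clone 3, and held 0 and 1 counts in clone 4. NAPSA, a clear cell marker, held 2 counts in parental cells, 53 and 50 in clone 3 and 6 and 4 in clone 4. CDH6 went from 2 counts in parental cells to 1059 and 1207 in clone 3 and 79 and 140 in clone 4, and SPP1 from 7952 to between 20111 and 39892. None of the 5 leukocyte and endothelial markers found exceeded 27 counts in any library. Log2 changes between EIR and parental cells also followed the GC content of transcripts, falling by 0.38 to 0.50 for each 10 points of GC over the 4 EIR libraries, and every change below was therefore fitted again with that dependence removed (GC-corrected). The median GC content was 47.7% for the 40 genes and 48.3% for expressed genes.

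**Figure D1:**
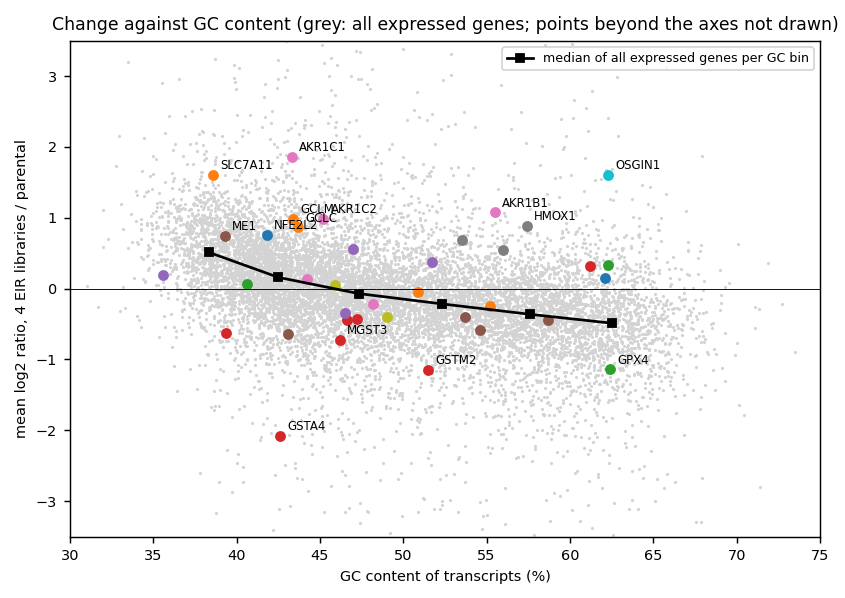
Mean log2 ratio of the 4 EIR libraries to parental (y axis) against transcript GC content (x axis, %) for expressed genes (grey), with the median per GC bin (black) and the genes described here (coloured by role as in the other plots). The median of all expressed genes went from 0.51 under 40% GC to -0.49 over 60%, and OSGIN1 and HMOX1 lay above it at high GC content.

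The core of the antioxidant response element, written here as TGACNNNGC and searched on both strands (so that a match on the other strand starts with GC and ends with GTCA), was found in the 250 bases upstream of the start of 9 of the 31 genes with a RefSeq promoter entry (29.0%), and of 3609 of 27305 genes in all (13.2%). The 9 were GCLM, GPX2, GSTA4, GSTP1, IDH1, KEAP1, ME1, PGD and TXNRD1. Bases further out than these 250, and genes without a promoter entry, were not searched. A gene missing from the list is therefore not shown to lack the element. Those of GCLM, ME1 and TXNRD1 (the first of its listed starts), which rose in EIR cells, and of GSTA4, which fell furthest among the genes that passed, are shown because the element stood upstream of genes that moved in opposite directions. Each runs 5′ to 3′ along the strand of the gene in GRCh38.p14 and ends at the base before the annotated start, with the matching letters in capitals. A match is a description of the letters and not a site of binding.
GCLM, chr1:93909431-93909680, minus strand: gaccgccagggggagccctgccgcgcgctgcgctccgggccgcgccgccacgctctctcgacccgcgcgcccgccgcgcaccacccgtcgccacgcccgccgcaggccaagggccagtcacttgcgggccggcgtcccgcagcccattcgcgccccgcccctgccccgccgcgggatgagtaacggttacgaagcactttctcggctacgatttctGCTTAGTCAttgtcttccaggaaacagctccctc
ME1, chr6:83431052-83431301, minus strand: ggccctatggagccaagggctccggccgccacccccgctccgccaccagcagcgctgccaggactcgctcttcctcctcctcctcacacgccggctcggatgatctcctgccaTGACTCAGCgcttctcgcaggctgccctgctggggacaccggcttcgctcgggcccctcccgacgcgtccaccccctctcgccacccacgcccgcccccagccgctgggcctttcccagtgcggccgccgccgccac
TXNRD1, chr12:104215529-104215778, plus strand: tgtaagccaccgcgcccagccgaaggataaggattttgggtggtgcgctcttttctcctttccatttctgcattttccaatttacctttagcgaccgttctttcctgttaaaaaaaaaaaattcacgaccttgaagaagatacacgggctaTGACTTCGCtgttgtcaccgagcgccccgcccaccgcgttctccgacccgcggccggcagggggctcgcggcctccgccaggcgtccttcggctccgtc
GSTA4, chr6:52995285-52995534, minus strand: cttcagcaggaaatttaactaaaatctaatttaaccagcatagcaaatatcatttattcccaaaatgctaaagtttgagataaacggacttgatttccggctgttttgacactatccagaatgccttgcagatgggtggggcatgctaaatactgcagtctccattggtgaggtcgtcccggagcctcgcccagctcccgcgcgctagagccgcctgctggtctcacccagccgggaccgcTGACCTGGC

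The first comparison asked how these genes differed between resistant and parental cells. In EIR cells NFE2L2 itself rose, together with the cystine carrier SLC7A11 and both subunits of the enzyme for the committed step of glutathione synthesis, while 3 of 7 glutathione transferases fell. By DESeq2, 11 of the 38 genes with an adjusted p were higher in EIR cells (28.9%), against 12.4% of all genes tested, and 4 were lower (10.5%), against 13.2%. The median log2 fold change was 0.15 for these 38 genes and 0.003 for all genes tested. The genes were chosen with earlier results of these data known, so these shares do not show how the pathways as a whole moved. Of the other genes of these pathways, described below, 8.8% were higher and 25.4% lower. The 4 EIR libraries are 2 clones, and with the libraries of each clone summed 7 of 38 were higher, against 6.22% of all genes tested, and 1 was lower, against 5.97%. That fit lost FTL, GCLC, GSTM2, HMOX1, IDH1, ME1, MGST3 and TXNRD1 and gained FTH1. By edgeR, 5 of 39 were higher, against 4.39% of all genes tested, and 1 was lower, against 6.73%. With GC correction, 13 of 38 were higher, against 10.2%, and 5 were lower, against 9.24%. Of the 40 genes, 17 were above the parental library in all 4 EIR libraries and 14 were below it in all 4, and with GC correction 18 and 14. The same share over all genes was not worked out, so these counts do not set the described genes apart from others. The libraries of a clone also deviated together, and GPX2, among the genes above, held at most 7 counts. With 1 parental library the replicate spread came from EIR libraries only, and p-values measure the spread between these libraries. Of the 15 genes that passed, edgeR left AKR1B10, FTL, GCLC, GSTM2, HMOX1, IDH1, MGST3, SLC7A11 and TXNRD1 short of the threshold, and FTL, GSTM2, HMOX1, IDH1, MGST3 and TXNRD1 were each lost in DESeq2 when 1 EIR library or another was left out. In bulk RNA, fewer cells expressing a gene and less of its RNA per cell cannot be told apart.

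**Figure D2:**
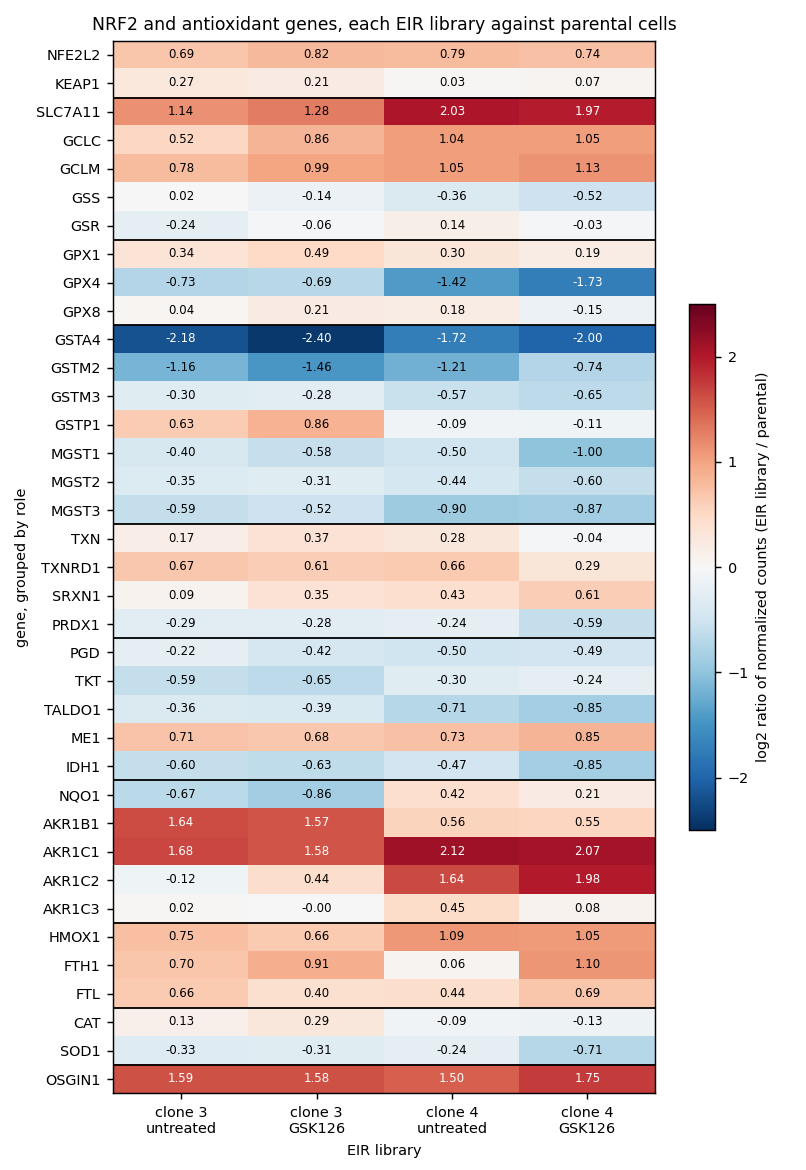
Log2 ratio of normalized counts in each EIR library (columns) to the parental library for 37 genes (rows, grouped by role), red above and blue below parental; GPX2, GPX3 and AKR1B10, which had libraries at 0, are left out. GSTA4 was lowest in every column, and the 3 genes of cystine uptake and glutamate-cysteine ligase were red throughout.

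**Figure D3:**
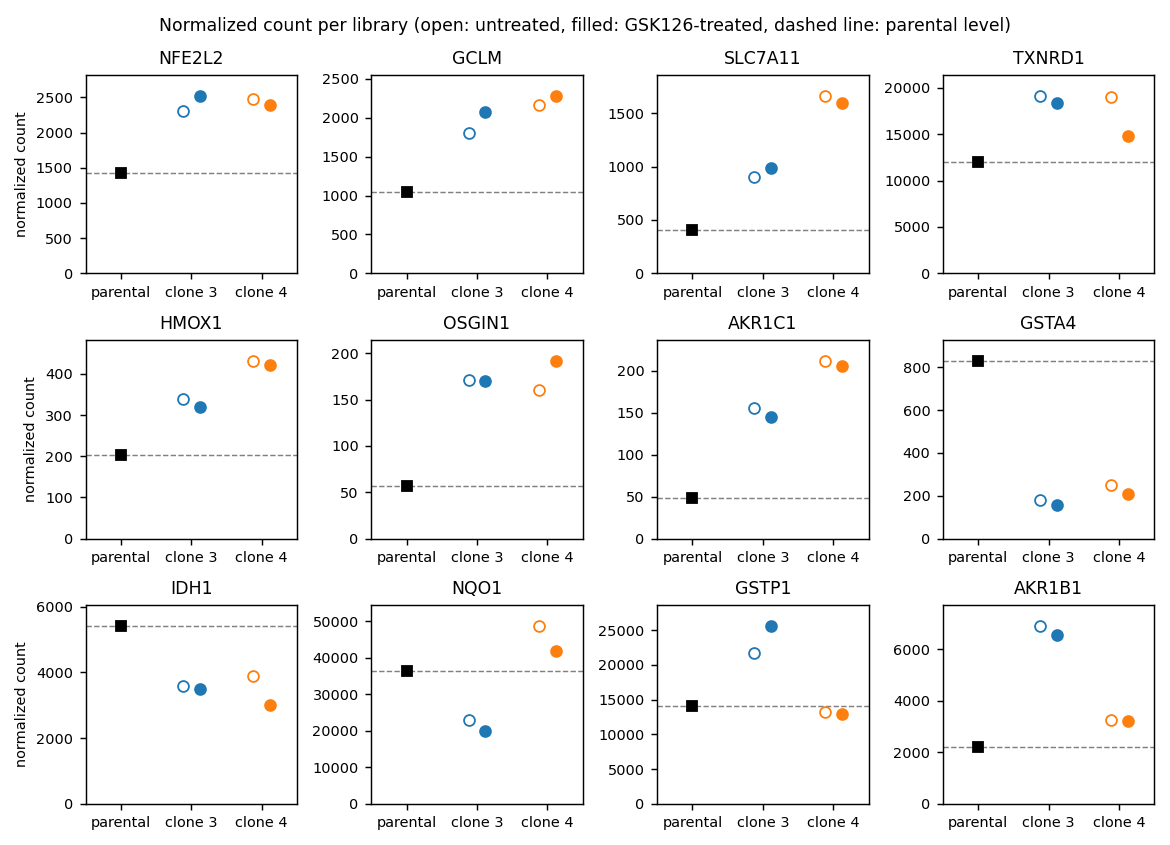
Normalized counts (y axis, linear from 0) of 12 genes in each library: parental (black square and dashed line), clone 3 (blue) and clone 4 (orange), open circles untreated and filled circles GSK126-treated. NFE2L2, GCLM, SLC7A11, TXNRD1, HMOX1, OSGIN1 and AKR1C1 lay above the dashed line in all 4 EIR libraries, GSTA4 and IDH1 below it, and NQO1 and GSTP1 on opposite sides in the 2 clones (GSTP1 above in both with GC correction).

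NFE2L2 had 1433 normalized counts in parental cells, 2313 and 2523 in clone 3 untreated and treated, and 2482 and 2388 in clone 4. All 4 EIR libraries were above the parental one and lay close together, whichever the clone or treatment. The log2 fold change was 0.76 ± 0.15 (SE, 4 EIR libraries against 1; DESeq2 adjusted p = 1.34e-05; edgeR adjusted p = 0.0282), and 0.56 with GC correction (DESeq2 adjusted p = 9.46e-04). NFE2L2 exons share 3509 bases with HNRNPA3 on the opposite strand, and whether counting used the strand is not stated in the sources used here. KEAP1, which presents NRF2 for degradation, had 1289 normalized counts in the parental library and between 1319 and 1556 with resistance, a log2 difference of 0.15 ± 0.19 that did not pass (DESeq2 adjusted p = 0.617). With GC correction the KEAP1 difference was 0.60 and did pass (DESeq2 adjusted p = 0.0016). The ratio of NFE2L2 to KEAP1 counts, without GC correction, was 1.11 in the parental library and 1.49 to 1.88 in the EIR libraries. Their transcripts differ in GC content, at 41.8% for NFE2L2 and 62.1% for KEAP1. With GC correction the log2 ratios of the EIR libraries to parental were 0.52 to 0.60 for NFE2L2 and 0.54 to 0.69 for KEAP1. The rise of NFE2L2 over KEAP1 was thus not seen with GC correction.

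Glutathione is made from glutamate, cysteine and glycine. SLC7A11, the cystine carrier of the system xc- exchanger, rose from 407 normalized counts in parental cells to 899 untreated and 989 treated in clone 3, and to 1663 and 1595 in clone 4. Every EIR library was above parental, and clone 4 stood clear of clone 3. The log2 fold change of SLC7A11 was 1.66 ± 0.42 (DESeq2 adjusted p = 9.32e-04, edgeR adjusted p = 0.0698), and it was smaller with GC correction, at 1.20. GCLC, the catalytic subunit of glutamate-cysteine ligase, went from 773 normalized counts to 1105 and 1400.4 in clone 3 and 1589 and 1601 in clone 4. GCLM, the modifier subunit of the same enzyme, went from 1045 to 1799.8 and 2077 in clone 3 and 2159.6 and 2283 in clone 4. No EIR library overlapped the parental level of either subunit. GCLM is the one shown with the response element core in the 250 bases upstream, and bases further out were not searched for either. The log2 fold change of GCLC was 0.88 ± 0.28 (DESeq2 adjusted p = 0.0105; edgeR adjusted p = 0.0763). That of GCLM was 0.99 ± 0.21 (DESeq2 adjusted p = 4.15e-05; edgeR adjusted p = 0.0311). The ratio of GCLC to GCLM counts was 0.739 in parental and 0.614 to 0.736 in EIR libraries. The genes of the later steps did not pass: GSS, which adds glycine, had a log2 difference of -0.23 ± 0.27, and GSR, which reduces oxidized glutathione, one of -0.04 ± 0.21 (DESeq2 adjusted p = 0.572 and 0.919).

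Of the 5 genes of the glutathione peroxidase family, none passed in DESeq2 and 3 had an adjusted p. GPX4, the peroxidase that acts on lipid peroxides in membranes, had 8215 normalized counts in parental cells, 4963 and 5077 in clone 3 and 3080.2 and 2476 in clone 4. All 4 EIR libraries were below parental and clone 4 was lowest, with a log2 difference of -1.07 ± 0.44 (DESeq2 adjusted p = 0.0544). It passed when the treated library of clone 3, the treated library of clone 4 or the untreated library of clone 3 was left out. With GC correction the difference was -0.63 (DESeq2 adjusted p = 0.301). Fitted apart against parental, clone 3 and clone 4 had GPX4 log2 differences of -0.71 and -1.56. GPX1, a cytosolic peroxidase, was above parental in all 4 EIR libraries by a log2 difference of 0.33 ± 0.19 (DESeq2 adjusted p = 0.194), which was 0.79 with GC correction (DESeq2 adjusted p = 4.41e-05). GPX8 had a log2 difference of 0.08 ± 0.22 (DESeq2 adjusted p = 0.842). GPX3, the secreted form, held 19 counts in parental cells and 0 in every EIR library, at least 6.40-fold lower against a floor of 3 counts per library, and edgeR gave it an adjusted p of 0.0899. GPX2 held 0 counts in parental cells and at most 7 in an EIR library.

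The 7 glutathione transferases, which couple glutathione to electrophiles or reduce lipid hydroperoxides, held 3 of the 4 genes that fell by DESeq2. In edgeR, and with the libraries of each clone summed, only 1 of the 7 was lower, which was GSTA4. GSTA4, which acts on the lipid peroxidation product 4-hydroxynonenal, had 829 normalized counts in parental cells, 182 and 156 in clone 3 and 251 and 207 in clone 4. Every EIR library was far below parental, and the log2 fold change was -2.06 ± 0.34 (DESeq2 adjusted p = 6.43e-08; edgeR adjusted p = 0.0173). GSTM2 had 262 normalized counts in parental cells, 117 and 94.9 in clone 3 and 113 and 157 in clone 4 (log2 fold change -1.12 ± 0.40, DESeq2 adjusted p = 0.0221). GSTM2 shares 559 exon bases with GSTM1, so reads could be divided between them, and their summed normalized counts were 1254 in parental and 546 to 767 in EIR libraries. The microsomal MGST3 had 2478 normalized counts in parental cells, 1645 and 1723 in clone 3 and 1329.5 and 1355 in clone 4 (log2 fold change -0.71 ± 0.24, DESeq2 adjusted p = 0.0159). For GSTM2 and MGST3, too, the EIR libraries did not overlap parental. GSTM3, MGST1 and MGST2 were below parental in all 4 EIR libraries with log2 differences of -0.44, -0.60 and -0.42, none of which passed (DESeq2 adjusted p from 0.173 to 0.196). With GC correction MGST1 did pass (DESeq2 adjusted p = 0.0107), and GSTM2 did not, at -0.93 (DESeq2 adjusted p = 0.0822). GSTP1 had a log2 difference of 0.39 ± 0.43 (DESeq2 adjusted p = 0.561), with the clones on opposite sides of parental, but all 4 EIR libraries above it with GC correction.

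Thioredoxin reduces protein disulfides and is itself reduced by TXNRD1 at the expense of NADPH. TXNRD1 had 12034 normalized counts in parental cells, 19132 and 18362 in clone 3 and 19023 and 14751 in clone 4. All 4 EIR libraries were above parental, the treated clone 4 library least so, and the log2 fold change was 0.57 ± 0.22 (DESeq2 adjusted p = 0.0403). This call was lost in edgeR (adjusted p = 0.126) and under TMM scaling. SRXN1, which repairs overoxidized peroxiredoxins, was above parental in all 4 EIR libraries, with a log2 difference of 0.38 ± 0.26 (DESeq2 adjusted p = 0.295). PRDX1, a peroxide-reducing peroxiredoxin, was below it in all 4, at -0.34 ± 0.21 (DESeq2 adjusted p = 0.225). TXN had a log2 difference of 0.20 ± 0.22 (DESeq2 adjusted p = 0.555) that turned to -0.49 with GC correction (DESeq2 adjusted p = 0.0236).

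The genes grouped under NADPH supply, which include pentose phosphate genes, moved in both directions. ME1, the cytosolic malic enzyme, had 1192 normalized counts in parental cells, 1949.7 and 1915 in clone 3 and 1985 and 2156 in clone 4. It rose by a log2 fold change of 0.75 ± 0.17 (DESeq2 adjusted p = 1.03e-04; edgeR adjusted p = 0.0356), but with GC correction the difference was 0.35 and did not pass (DESeq2 adjusted p = 0.236). IDH1, the cytosolic isocitrate dehydrogenase, had 5406 normalized counts in parental cells, 3575 and 3500.4 in clone 3 and 3904 and 3005 in clone 4. Every EIR library was lower, and the log2 fold change was -0.63 ± 0.21 (DESeq2 adjusted p = 0.0147). The pentose phosphate genes PGD, TKT and TALDO1 were below parental in all 4 EIR libraries, with log2 differences of -0.40, -0.43 and -0.56 that did not pass (DESeq2 adjusted p = 0.115, 0.189 and 0.106). With GC correction TALDO1 alone of the 3 stayed below parental in all 4, TKT being above it in both clone 4 libraries and PGD level with it in untreated clone 3, and the log2 differences were -0.15, -0.05 and -0.29.

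Among the detoxification genes, AKR1C1, a ketosteroid and carbonyl reductase, had 48.3 normalized counts in parental cells, 156 and 145 in clone 3 and 212 and 205 in clone 4. All 4 EIR libraries were above parental, and the log2 fold change was 1.89 ± 0.42 (DESeq2 adjusted p = 1.02e-04; edgeR adjusted p = 0.0391). AKR1C1 lies on chromosome 10, where expressed genes had a median log2 ratio to parental of -0.41 in both clones. AKR1C1, AKR1C2 and AKR1C3 are close in sequence, so that reads could be divided between them. Summed over the 3 genes, normalized counts were 1378 in parental and 1478 to 2048 in EIR libraries, most of them from AKR1C3, which had a log2 difference of 0.15 ± 0.26 (DESeq2 adjusted p = 0.725). AKR1B10, a reductase of aldehydes and retinal, held 0 counts in parental cells and 8 and 20 in clone 3 and 35 and 50 in clone 4, and the EIR mean was at least 9.57-fold higher against a floor of 3 counts in the parental library (DESeq2 adjusted p = 0.0111; edgeR adjusted p = 0.0787). AKR1C2 had 10.1 normalized counts in the parental library and between 9.26 and 41.3 with resistance, so that the groups overlapped (DESeq2 adjusted p = 0.451). NQO1 had a log2 difference of -0.12 ± 0.51 (DESeq2 adjusted p = 0.895). AKR1B1 had one of 1.17 ± 0.50 (DESeq2 adjusted p = 0.0666), which passed with GC correction at 1.46 (DESeq2 adjusted p = 0.0163). Both differed between the clones, with which their library values are given.

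HMOX1, which opens heme and releases its iron, had 202 normalized counts in parental cells, 339.8 and 319 in clone 3 and 431 and 421 in clone 4. No EIR library overlapped parental, and the log2 fold change was 0.90 ± 0.31 (DESeq2 adjusted p = 0.0169). FTL, the ferritin light chain, had 17595 normalized counts in parental cells, 27819 and 23272 in clone 3 and 23937 and 28312 in clone 4 (log2 fold change 0.55 ± 0.20, DESeq2 adjusted p = 0.0245; edgeR adjusted p = 0.121). FTH1, the heavy chain that oxidizes iron, had 22832 normalized counts in parental cells, 37150.3 and 42859 in clone 3 and 23863 and 48872 in clone 4. The untreated clone 4 library was near parental and the other 3 were higher, so that the log2 difference of 0.74 ± 0.39 did not pass (DESeq2 adjusted p = 0.154). OSGIN1, an oxidative stress-induced growth inhibitor, had 56.4 normalized counts in parental cells, 171 and 170.0 in clone 3 and 161 and 191 in clone 4. It was 3.07-fold higher in the EIR mean and close to that in each EIR library, at 1.62 ± 0.34 on the log2 scale (DESeq2 adjusted p = 2.67e-05; edgeR adjusted p = 0.0311). OSGIN1 shares 457 exon bases with MLYCD on the same strand, so reads could be divided between them. MLYCD went the other way, from 305 normalized counts in parental cells to between 133 and 181 in EIR libraries, and the sum of both genes was 362 in parental and 305 to 372 in EIR libraries, so no rise was seen in the sum. CAT, which breaks down hydrogen peroxide, and SOD1, which removes superoxide, had log2 differences of 0.06 ± 0.24 and -0.38 ± 0.24 that did not pass (DESeq2 adjusted p = 0.888 and 0.255). NFE2L2, GCLM, AKR1C1, OSGIN1 and GSTA4 passed at an adjusted p under 0.05 in all 17 fits of this comparison. For NFE2L2 and OSGIN1 the weakest of these fits came only just under the threshold. The share of all genes that passed in every fit was not worked out, so the tally does not set these 5 apart. Every fit used the same parental library, so the tally says nothing about variation between parental cultures. The fit with treatment as covariate is also the same model as that of untreated EIR cells against parental. On hg19 (GRCh37) these 5 genes span chr2:178083395-178257484 for NFE2L2, chr1:94350755-94375012 for GCLM, chr10:5005445-5025475 for AKR1C1, chr16:83964916-83999937 for OSGIN1 and chr6:52842746-52860102 for GSTA4.

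**Figure D4:**
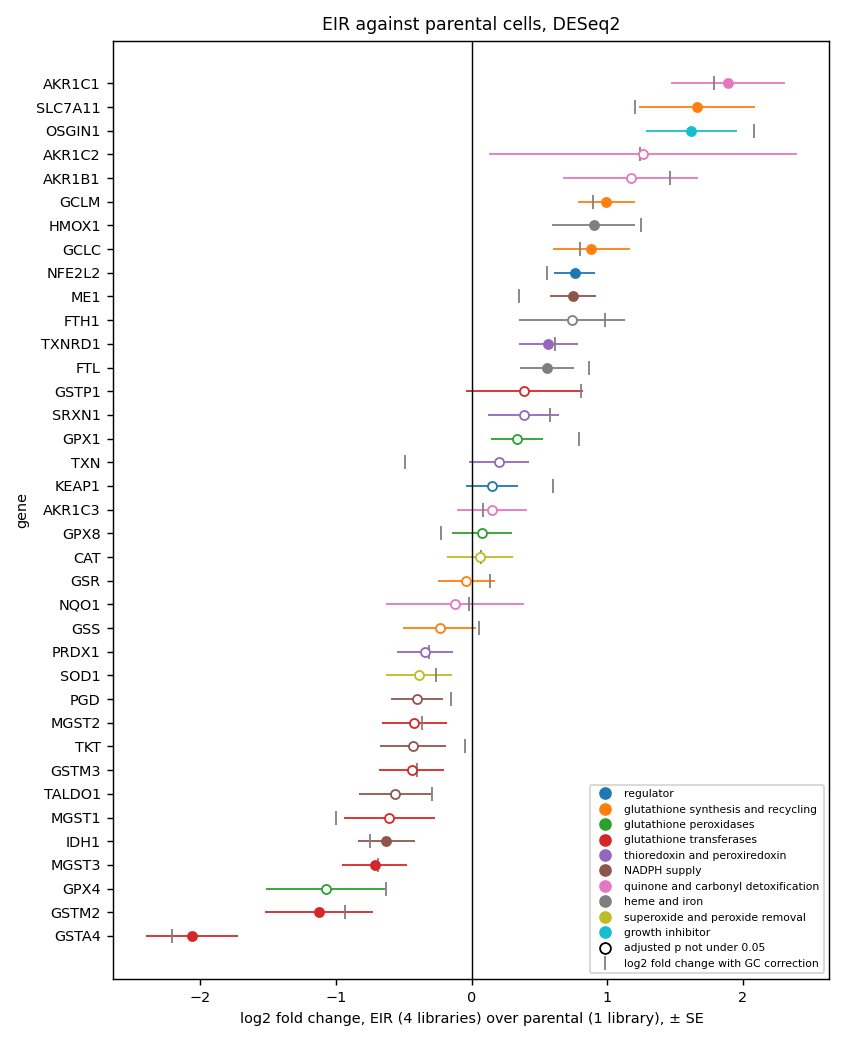
DESeq2 log2 fold change (x axis, ± SE) of EIR over parental cells for the 37 genes with an adjusted p other than AKR1B10, filled where adjusted p was under 0.05, with the GC-corrected value as a grey bar. The range ran from GSTA4 at -2.06 to AKR1C1 at 1.89, and the bars for TXN, GSS, GSR and GPX8 lay on the other side of 0 from their points.

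Per kilobase of the median annotated transcript, the highest levels in parental cells were those of NQO1, PRDX1, FTH1, FTL and GSTP1, in that order, and the same 5 led when the union of exons gave the length, with PRDX1 and FTL first. Of the genes that rose in EIR cells, FTL had the highest level in parental cells, at 20201 normalized counts per kilobase, and AKR1B10 the lowest, at 0.

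The other genes of these pathways were a list of 131, of which 125 were found. By DESeq2, 10 of the 114 with an adjusted p were higher in EIR cells (8.8%) and 29 were lower (25.4%), against the same 12.4% and 13.2% of all genes. Their median log2 fold change was -0.31. By edgeR, 4 of 115 were higher (3.5%, against 4.39% of all genes) and 20 were lower (17.4%, against 6.73%). With the libraries of each clone summed, 6 of 113 were higher (5.3%, against 6.22%) and 14 were lower (12.4%, against 5.97%). With GC correction, 7 of 114 were higher (6.1%, against 10.2%) and 25 were lower (21.9%, against 9.24%). Among the largest rises were those of ABCC2, an exporter of glutathione conjugates (2.55 ± 0.43, DESeq2 adjusted p = 9.37e-08) and SQSTM1, an autophagy receptor that binds KEAP1 (0.90 ± 0.15, DESeq2 adjusted p = 1.23e-07), on the log2 scale. The largest falls were in GPX7, a peroxidase of the endoplasmic reticulum (-2.70 ± 0.35, DESeq2 adjusted p = 1.10e-12), IDH2, the mitochondrial isocitrate dehydrogenase (-2.21 ± 0.27, DESeq2 adjusted p = 5.77e-14), and SESN2, a stress-induced sestrin (-1.56 ± 0.24, DESeq2 adjusted p = 3.08e-09). IDH2 thus fell beside IDH1, from 6556 normalized counts in parental cells to between 1215 and 1720.2 in EIR cells.

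The second comparison asked whether the resistant clones differed from each other. Clone 4 carried more SLC7A11 and NQO1 and less GPX4, GSTP1 and AKR1B1 than clone 3. Of 38 genes with an adjusted p, 2 were higher in clone 4 (5.3%), against 3.30% of all genes tested, and 3 were lower (7.9%), against 6.52%, in DESeq2 with treatment as covariate. These 5 also passed in edgeR, which added AKR1B10 and AKR1C2 (4 higher, against 5.65% of all genes, and 3 lower, against 9.27%), and with GC correction, which added TKT (3 higher, against 4.05%, and 3 lower, against 6.84%). Epithelial markers separated the clones as well, but not all in one direction. EPCAM, NAPSA, CDH6, KRT7, KRT8 and SPP1 were higher in both libraries of clone 3. KRT18 was higher in both of clone 4 (18326 and 17186 normalized counts, against 13250 and 15197 in clone 3). ARID1B, listed with these markers, was also higher in clone 4, and PAX8 overlapped between the clones. The part of the markers in these differences was not tested. NQO1, which reduces quinones, had 36188 normalized counts in parental cells, 22822 and 19903 in clone 3 and 48568 and 41780.2 in clone 4. Clone 3 was below parental and clone 4 above it, and the difference of clone 4 from clone 3 was 1.07 ± 0.15 on the log2 scale (DESeq2 adjusted p = 1.98e-10). For SLC7A11 the same difference was 0.78 ± 0.20 (DESeq2 adjusted p = 0.0017), with both clones above parental, and it was lost without the untreated library of clone 3.

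AKR1B1, the aldose reductase, had 2213 normalized counts in parental cells, 6892 and 6564 in clone 3 and 3260.3 and 3232 in clone 4. Both clones were above parental, clone 3 by more, and the difference of clone 4 from clone 3 was -1.06 ± 0.17 (DESeq2 adjusted p = 7.97e-09). GSTP1, a cytosolic transferase, had 14052 normalized counts in parental cells, 21742 and 25577 in clone 3 and 13225 and 12979 in clone 4. Clone 3 was above parental and clone 4 just below it (above it with GC correction), a difference of -0.85 ± 0.16 (DESeq2 adjusted p = 4.22e-06). For GPX4, below parental in both, the difference was -0.87 ± 0.18 (DESeq2 adjusted p = 3.12e-05). Of the other pathway genes, 4 of 115 were higher in clone 4 (3.5%, against 3.30% of all genes) and 11 were lower (9.6%, against 6.52%). Among the largest rises were those of EPHX2 and NNT, at 0.96 and 0.91 on the log2 scale (DESeq2 adjusted p = 0.0163 and 8.42e-05). NNT supplies NADPH in mitochondria. The 3 largest falls were in UGT1A6, CYBA and BLVRA, at -7.39, -3.82 and -3.11 (DESeq2 adjusted p = 0.0341, 1.34e-88 and 1.79e-12). BLVRA reduces biliverdin, the product of HMOX1, and CYBA is a subunit of the NADPH oxidase. UGT1A6 shares exons with the other UGT1A genes, so its counts are uncertain.

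**Figure D5:**
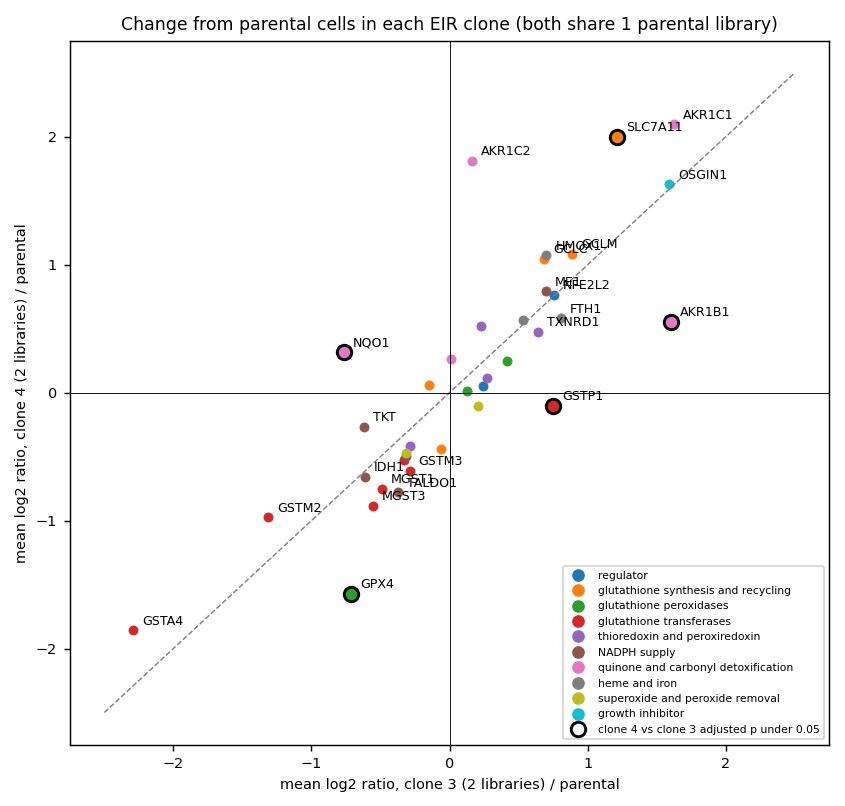
Mean log2 ratio to the parental library in clone 4 (y axis, 2 libraries) against clone 3 (x axis, 2 libraries) for 37 genes coloured by role, ringed where the clones differed by DESeq2; both axes share the 1 parental library. NQO1 and GSTP1 lay on opposite sides of 0 in the 2 clones (GSTP1 above 0 in both with GC correction), and GSTA4 was far below 0 in both.

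The third comparison asked whether GSK126 changed these genes in cells already resistant to it. By DESeq2, 0 of 39 genes with an adjusted p passed, against 0.00335% of all genes tested, which was 1 of 29847, and edgeR also called 0. At an unadjusted p under 0.05 there were 1 of these genes and 117 genes in all. That gene was FTH1, which went from 37150.3 to 42859 normalized counts in clone 3 and from 23863 to 48872 in clone 4, a log2 difference of 0.57 ± 0.29 (DESeq2 adjusted p = 1). NFE2L2 had a log2 difference of 0.02 ± 0.19 (DESeq2 adjusted p = 1), and those of GCLM and TXNRD1 were 0.13 ± 0.22 and -0.22 ± 0.21. With the clone number as replicate block, 0 of the genes passed in DESeq2 or edgeR, while the count over all genes went from 1 to 4 in DESeq2. With 2 libraries a side, a difference that misses the threshold does not show that treatment left a gene as it was.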

How the data were processed

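RNA-seq was performed on total RNA of 5 TOV21G libraries, 1 parental and 4 EIR (clones 3 and 4, untreated and GSK126-treated), grouped by their labels. The authors aligned reads to hg19 with Bowtie2 and estimated counts per gene with RSEM, and the deposited values are these expected counts (estimated counts, not normalized), all whole numbers. The labels give RSEM version 1.2.3, and another version is named in the methods of the study. Depth ran from 25479238 to 30764963 counts per library. RSEM divides reads that fit several genes by estimation, so close paralogs and overlapping genes are uncertain.

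Gene symbols came from GENCODE release 44 mapped to GRCh37, which matched 29203 of 30476 identifiers (95.8%). Exon overlaps, gene spans, transcript lengths and GC content came from it too. The authors counted on Ensembl gene tracks of a release that is not stated, in which the exon overlaps could differ. Promoter sequences came from RefSeq (GRCh38.p14). The genes and lists were chosen with earlier results of these data known.

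All genes were fitted in R 4.3.3 by the Wald test of DESeq2 1.42.0 (two-sided, Benjamini-Hochberg adjusted p under 0.05): EIR against parental in 5 libraries, clone 4 against clone 3 with treatment as covariate, and GSK126-treated against untreated EIR. edgeR 4.0.16 (quasi-likelihood), other scalings, low-count filters, a GC correction by lowess, summed clones, leaving out each EIR library and a replicate block were alternatives. The same clone number means the same clone, and libraries sharing it deviated together (correlation 0.862 over 11564 genes). Ratios used a pseudocount of 0.5, and the floor was 3 counts, for counting error only. Genes that passed in either of the first 2 comparisons were given with every library's value, and of the other pathway genes the 3 largest rises and falls whose mean normalized count reached 100, except that some of these are not reported here. The scripts were tested on simulated data.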

Additional observations from a re-analysis of the deposited data

Results flagged for a closer look

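For 5 genes the change from parental cells differed between the clones by a test of that difference (DESeq2, clone 4 against clone 3 with treatment as covariate, adjusted over all genes). The difference on the log2 scale was 0.78 for SLC7A11, 1.07 for NQO1, -0.87 for GPX4, -0.85 for GSTP1 and -1.06 for AKR1B1. The 2 libraries of each clone lay on the same side of both libraries of the other clone for all 5. That also held for genes that did not pass between clones, such as KEAP1, GSS and CAT, so it adds no support. The share over all genes was not worked out.

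In 2 of 38 genes 1 EIR library stood apart from the other 3. The GSK126-treated clone 4 library was the lowest for TXNRD1, with a gap to its neighbour of 0.842 of the range of the 4 libraries, and for PRDX1, with a gap of 0.876, both above Dixon's 95% critical value. Chance alone flags about 1 in 20 such groups. That library was also the shallowest, at 25479238 counts, and the part of depth in these values was not tested.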

How the results depend on the processing

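Between EIR and parental cells 15 of the described genes and 4157 genes in all passed. The described genes that passed numbered 6 with edgeR, 8 with the libraries of each clone summed and 6 with a log2 fold change of at least 1. They numbered 7 with treatment as covariate. Untreated EIR cells against parental, in a fit of 3 groups, gave the same 7, because it is the same model. Over all genes the counts were 2024 with edgeR, 1914 with summed clones and 1998 with treatment as covariate or for untreated EIR cells. They were 2017 for treated EIR cells and 2115 with a log2 fold change of at least 1. For the genes that passed, 181 single values under an alternative stayed past the threshold and 58 did not, and between clones 54 stayed and 1 did not. The one value that changed sign where either fit called it was that of TXN, at -0.49 with GC correction against 0.20 without.

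Between clones, 5 described genes and 1738 genes passed; leaving out 1 library gave 4 to 11 described genes and 831 to 2800 genes, the highest of both without the untreated library of clone 4. A log2 fold change of at least 1 left 2 and 1096. For GSK126 treatment, 1 gene in all passed, against 0 in edgeR, 4 with the replicate block, 7 with the replicate block and GC correction, and 1 to 25 when 1 library was left out, the highest without the untreated library of clone 3. The replicate block changed no call among the described genes. The cause of these shifts was not tested, except that fewer libraries enter some fits. One parental library and 2 clones limit every comparison.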
